A study of Mus musculus with 15 samples.

Results

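The fibroblasts called TAF in the labels came from 4 sources, TAF-el4, TAF-tib42, TAF-tib48 and TAF-tib6, and all 4 were set against the single source called NSF. Each source was measured on 3 Agilent 2-colour arrays, so 12 of the 15 arrays of the series are TAF arrays and 3 are NSF arrays. The arrays of a source were averaged, and the question was what all 4 TAF sources share against NSF whatever their response label. By their labels TAF-tib6 and NSF are sensitive, while the other 3 TAF sources are resistant; the title of the series speaks of tumours that did not respond to drugs against VEGF, which drives the growth of blood vessels. TAF is read here, from that title, as tumour-associated fibroblasts. The labels do not spell out NSF or the tib names, EL4 is a mouse T-cell lymphoma line, and no label gives a mouse strain, an age or a treatment for any source. On every array the Cy5 dye marked the fibroblast RNA and the Cy3 dye marked a commercial universal mouse reference RNA. Values are log2 Cy5/Cy3 ratios, and a difference between sources is a log2 fold change from which the reference drops out.

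Fibroblasts build and remodel the matrix of connective tissue, and they release growth factors, chemokines and complement proteins that act on vessels and on cells of the immune system. They also keep the expression of Hox and other patterning genes of the body site they came from. Fibroblasts of tumours are studied for changes in all of these secreted products. In bulk RNA, fewer cells of a type and less RNA per cell cannot be told apart.

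No label tells whether the 3 replicates of a source were separate cultures or animals, so p-values over arrays reflect array-to-array spread, which may be technical. NSF is 1 source, so a difference of the TAF sources as a class and a peculiarity of that 1 NSF source cannot be told apart. A gene in which the NSF arrays alone stand apart is therefore called in all 4 comparisons, since these share the NSF arrays, and the 4 calls of a gene are not independent. The arrays lie on 3 runs of consecutive slides: NSF shares its run with TAF-el4 replicates 1 and 2 and with no other TAF array. Scan order followed source order, so scan order and source cannot be told apart. The median Cy5 intensity of an array was 174.7 to 285.9 over a background of 52 to 56. The fibroblast genes Col1a1, Col3a1 and Vim (collagen chains and the filament protein vimentin) were brighter than 99.8% or more of the probes in both NSF and TAF. The leukocyte gene Ptprc was brighter than 1.19% of the probes in NSF and 5.79% in TAF. The summed Cy5 signal of 18 macrophage markers was 4135 to 4388 on the NSF arrays and 4233 to 4675 on the TAF arrays, and the part of such cells in the results was not tested.

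Of 31262 genes tested with limma, 684 were called in the same direction in all 4 comparisons of a TAF source with NSF, at an adjusted p under 0.05 in each. Of these, 566 (1.81% of the genes tested) were lower in the TAF sources and 118 (0.377%) were higher. For single sources the share called lower and higher was 8.57% and 8.76% in TAF-el4, 13.2% and 10.8% in TAF-tib42, 14.5% and 11.7% in TAF-tib48, and 6.72% and 4.62% in TAF-tib6. TAF-tib6 was thus the source with the fewest genes called against NSF, and it gave the weakest difference in 238 of the 566 lower genes. Without TAF-tib6, the rule over the other 3 sources named 1735 genes, 1121 lower and 614 higher. Most shared differences were small. The weakest of the 4 differences was under 0.5 in size in 469 of the 566 lower and in 111 of the 118 higher genes, and 26 genes were called with at least 2-fold in every comparison, 25 lower (0.08%) and 1 higher (0.0032%). The 12 TAF arrays did not overlap with the 3 NSF arrays in 548 of the 566 lower and 112 of the 118 higher genes; over all genes 3.5% lay wholly below NSF and 1.48% wholly above.

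Treating the slide run as a block left 132 genes called in all 4 comparisons, 122 lower and 10 higher, and 123 of them were among the 684. In that fit NSF is joined to the TAF sources of the other runs only through the 2 TAF-el4 arrays of its own run. Within that run, 5151 of the 31262 genes were called between the 3 NSF and the 2 TAF-el4 arrays. They held 629 of the 684 in the same direction, a count largely fixed in advance, since the 684 were chosen with these same arrays.

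With 1 mean value per source and the source as the unit (5 source means), limma called 0 genes at an adjusted p under 0.05, while 934 (2.99%) had an unadjusted p under 0.05, 308 (0.985%) higher and 626 (2%) lower in TAF. That 2.99% is a smaller share than the 0.05 expected under the threshold if no gene differed. NSF, a single source, is assumed in that fit to vary as the TAF sources do. The smallest adjusted p over source means was 0.242, shared by 3 genes: C1qtnf12, Clec3b and Cyp4b1.

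C1qtnf12, which codes for a secreted protein of the C1q and TNF related family, was 2.66-fold higher in the TAF sources. Its log2 ratio on the NSF arrays was 0.25, 0.33 and 0.27, and on the 12 TAF arrays it ran from 1.59 over a median of 1.66 to 1.95. The TAF arrays all stood above NSF and close to each other. The source means were 1.61 in TAF-el4, 1.62 in TAF-tib42, 1.77 in TAF-tib48 and 1.79 in TAF-tib6, and the mean difference from NSF was 1.41 (SE 0.0934, n = 4 sources against 1). It was the single gene called at least 2-fold higher in every comparison.

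Clec3b codes for tetranectin, a plasminogen-binding lectin of plasma and matrix. The 3 NSF arrays read 1.29, 0.94 and 1.29, and the TAF arrays ran from -0.05 over 0.06 to 0.20. The TAF mean lay 1.12 below NSF (SE 0.0723), and the SD over the 4 TAF sources was 0.07. Cyp4b1, a cytochrome P450 that oxidises fatty acids and foreign compounds, read 0.85, 0.79 and 0.93 in NSF and -0.07 to 0.11 in TAF, with a difference of -0.85 (SE 0.0494); it was named after its values were seen. In both genes the 4 TAF sources were nearly alike and NSF alone stood apart. Cyp4b1 was dim in TAF, with mean Cy5 signals of 6.26 to 6.36 (log2) against 7.32 in NSF. The size of its difference and the evenness of its TAF values are therefore uncertain.

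**Figure D1:**
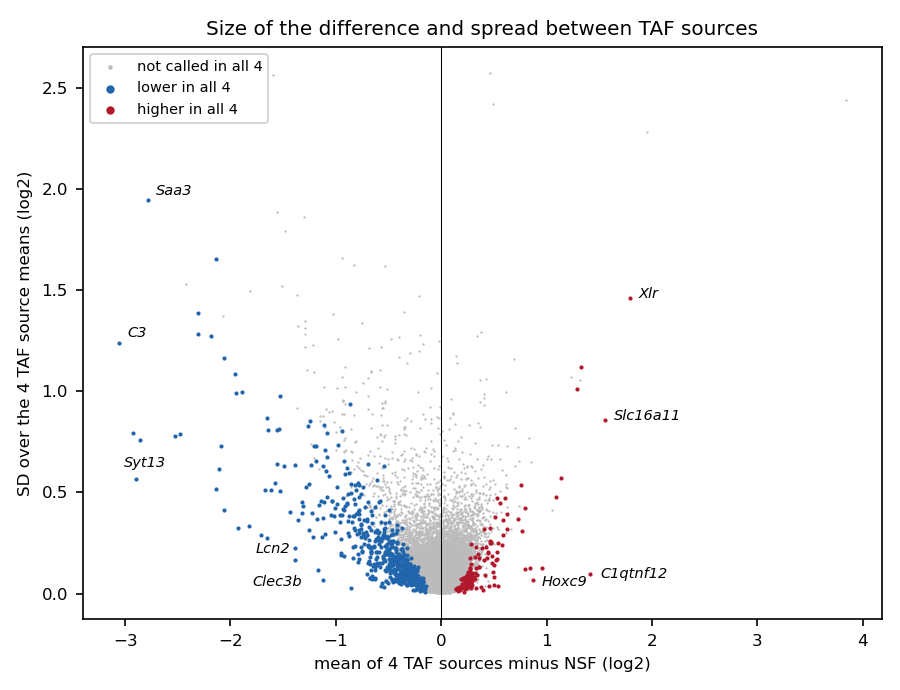
Each point is 1 of the 31262 genes tested, with the mean of the 4 TAF sources minus NSF on the x axis (log2) and the SD over the 4 TAF source means on the y axis (log2); blue and red points were called lower and higher in all 4 comparisons. C1qtnf12 and Clec3b combine a difference of more than 1 with an SD of 0.10 and 0.07, whereas C3 and Saa3 lie further left at an SD of 1.24 and 1.95.

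The lowest genes were lower in TAF than in NSF by 2.18-fold (Clec3b) to 8.34-fold (C3) on average among those named, but the TAF sources differed among themselves. Syt13, a synaptotagmin of vesicle traffic, read 0.35, 0.28 and 0.18 on the NSF arrays and -3.46 to -1.91 on the TAF arrays, with a mean difference of -2.89 (SE 0.492). Even its weakest source, TAF-el4, was 2.19 below NSF, the largest such value among the genes named. A dimmer probe of Syt13 gave a difference of -0.02.

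Ch25h makes 25-hydroxycholesterol, an oxysterol that restrains sterol synthesis and viral entry. It read 2.35 and 2.13 on the 2 NSF arrays with a usable spot and -0.15 to 0.77 on the TAF arrays, 1.93 below NSF on average (SE 0.283). Il33, an alarmin cytokine kept in the nucleus, read -1.41, -1.40 and -1.48 in NSF and -3.14 to -2.54 in TAF, 1.39 lower (SE 0.199). Both genes were lower on every TAF array than on any NSF array. Il33 was dim in TAF, with mean Cy5 signals of 6.13 to 6.74 (log2) against 7.89 in NSF, so the size of its difference is uncertain. Adamts15, a secreted protease that cleaves versican, was lower by 1.39 (SE 0.151), with 0.17 as the SD over the TAF sources. Efna5, an ephrin ligand, and Tenm3, a teneurin of cell contacts, were lower by 1.62 and 1.44, but their other probes gave 0.01 and -0.06.

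**Figure D2:**
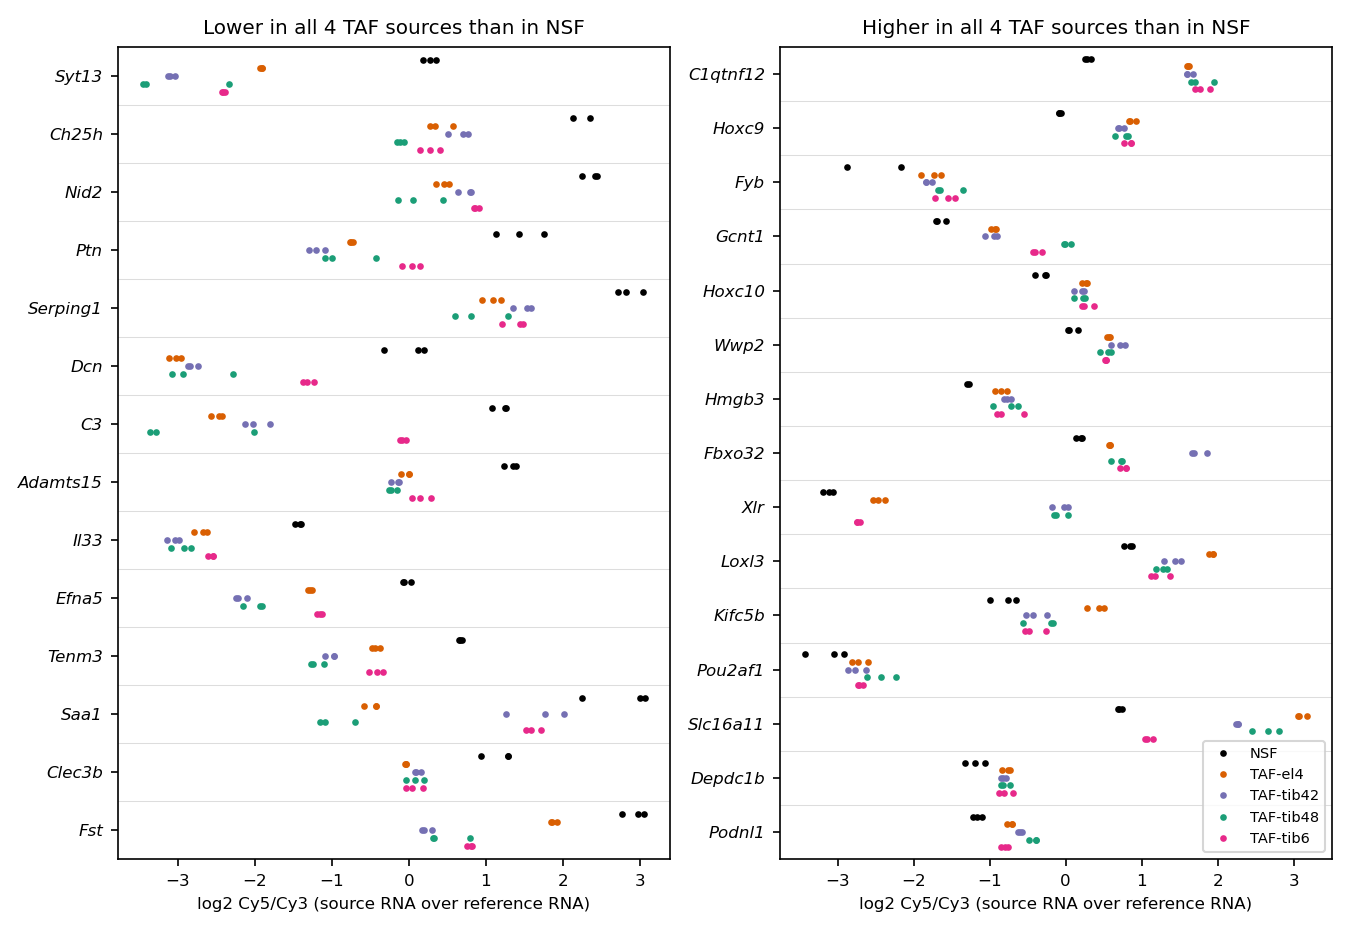
The log2 Cy5/Cy3 ratio of each array (x axis) is drawn for 14 of the 15 lowest and for the 15 highest genes by the weakest of the 4 differences from NSF, 1 point per array, coloured by source; a spot with an outlier flag is left out. On the left the black NSF points lie to the right of all TAF points, and on the right they lie to the left of them, while TAF sources differ widely in genes such as C3, Saa1, Xlr and Slc16a11.

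The complement and acute phase genes held a high share of genes lower in TAF. Complement proteins tag cells and microbes for removal, and acute phase proteins are released in inflammation. Of 22 complement genes tested, 8 were lower in all 4 comparisons and 0 were higher, and the median difference of the list was -0.08; of 18 acute phase and innate defence genes, 10 were lower and 0 higher, with a median of -0.73. Over all genes, 1.81% were lower, 0.377% were higher, and the median was -0.00. The 8 complement genes were C3, Serping1, Cfb, C1ra, C4b, C2, C1s1 and Cd55. The 10 acute phase and defence genes were Lcn2, Saa3, Saa1, Lbp, Steap4, Cp, Il1r1, Nfkbiz, Tlr4 and Chil1.

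C3, the protein on which all complement pathways meet, was among the genes of largest mean difference. The NSF arrays read 1.08, 1.27 and 1.25, and the TAF arrays ran from -3.36 over -2.08 to -0.04. The groups did not overlap. TAF-tib6 stood nearest to NSF, with a mean of -0.08, while TAF-el4, TAF-tib42 and TAF-tib48 were at -2.49, -1.99 and -2.88. The TAF-tib48 arrays read -3.36, -3.28 and -2.01, so the mean of that source joins unlike arrays. Its replicate 3 was nearer to NSF than its other arrays also in Hp, Saa3, Dcn, Cxcl12, Syt13 and Egfr, and the cause was not tested. The mean difference was -3.06 (SE 1.08, 8.34-fold); a dimmer probe of C3 gave -0.12. Serping1, the C1 inhibitor that restrains the first steps of complement and the kinin system, was more even: 2.83, 2.73 and 3.04 on the NSF arrays against 0.60 to 1.59 on the TAF arrays, a difference of -1.65 (SE 0.241). Cfb, the protease of the alternative pathway, read 2.25, 2.13 and 2.36 in NSF and -0.18 to 1.34 in TAF, a difference of -1.58 (SE 0.475). C1ra, the protease of the C1 complex, differed by -1.54 (SE 0.706), with TAF-tib6 nearest to NSF at 0.68 against 1.39. C4b and C2, which form the classical convertase, differed by -1.12 and -0.66.

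Lcn2, an iron-trapping lipocalin, was lower by an almost equal amount in every TAF source. It read 0.35, 0.84 and 0.81 in NSF, and its source means were -0.56, -0.44, -0.62 and -0.37 in TAF-el4, TAF-tib42, TAF-tib48 and TAF-tib6. The mean difference was -1.17 (SE 0.11), with a weakest of -1.03. Lcn2 was well above background on 2 of 3 TAF-el4 arrays and on all arrays of the other sources. It was dim in every TAF source, however, with mean Cy5 signals of 6.02 to 6.32 (log2) against 7.73 in NSF. The size and the evenness of its difference are therefore uncertain. Lbp, which hands bacterial lipopolysaccharide to its receptor, differed by -1.26 (SE 0.274), and Steap4, a metalloreductase, by -0.68 (SE 0.0803), although a dimmer probe of Steap4 gave -0.04. Steap4 was also dim in TAF, at 6.34 to 6.61 against 7.34 in NSF, so the size of its difference is uncertain.

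The serum amyloid genes Saa3 and Saa1 split the TAF sources. Saa3 read 2.75, 3.44 and 3.53 on the NSF arrays. Its source means were -0.67 in TAF-el4 and -1.70 in TAF-tib48, but 2.21 in TAF-tib42 and 1.99 in TAF-tib6. Saa1 showed the same order, with NSF at 2.25, 3.07 and 3.00, TAF-el4 and TAF-tib48 at -0.48 and -0.98, and TAF-tib42 and TAF-tib6 at 1.69 and 1.61. The SE of the mean difference was 1.69 for Saa3 (-2.78) and 1.2 for Saa1 (-2.31), large beside the differences themselves, and a dimmer probe of Saa1 gave -0.12. Hp, the haemoglobin-binding haptoglobin, was not called in all 4: it read 3.22 to 3.41 in NSF and -1.16 to 3.51 in TAF, and TAF-tib6 lay 0.17 above NSF. Its TAF-tib48 arrays were far apart, at -1.16, -1.05 and 1.58.

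With the slide run as a block, Serping1 and Cfb of the complement list and Lcn2 and Lbp of the acute phase and innate defence genes were called in all 4, 2 in each list; with the scanner's log ratio the counts were 6 and 5. Leaving out 1 of the 15 arrays ended the calls of C1s1, Cd55, Il1r1, Nfkbiz, Tlr4 and Chil1 in some of the cases, with mean differences of -1.66 to -1.58, -0.42 to -0.37, -0.90 to -0.86, -0.77 to -0.76, -0.31 to -0.26 and -0.27 to -0.21 there, and without NSF replicate 1 the acute phase count was 6.

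**Figure D3:**
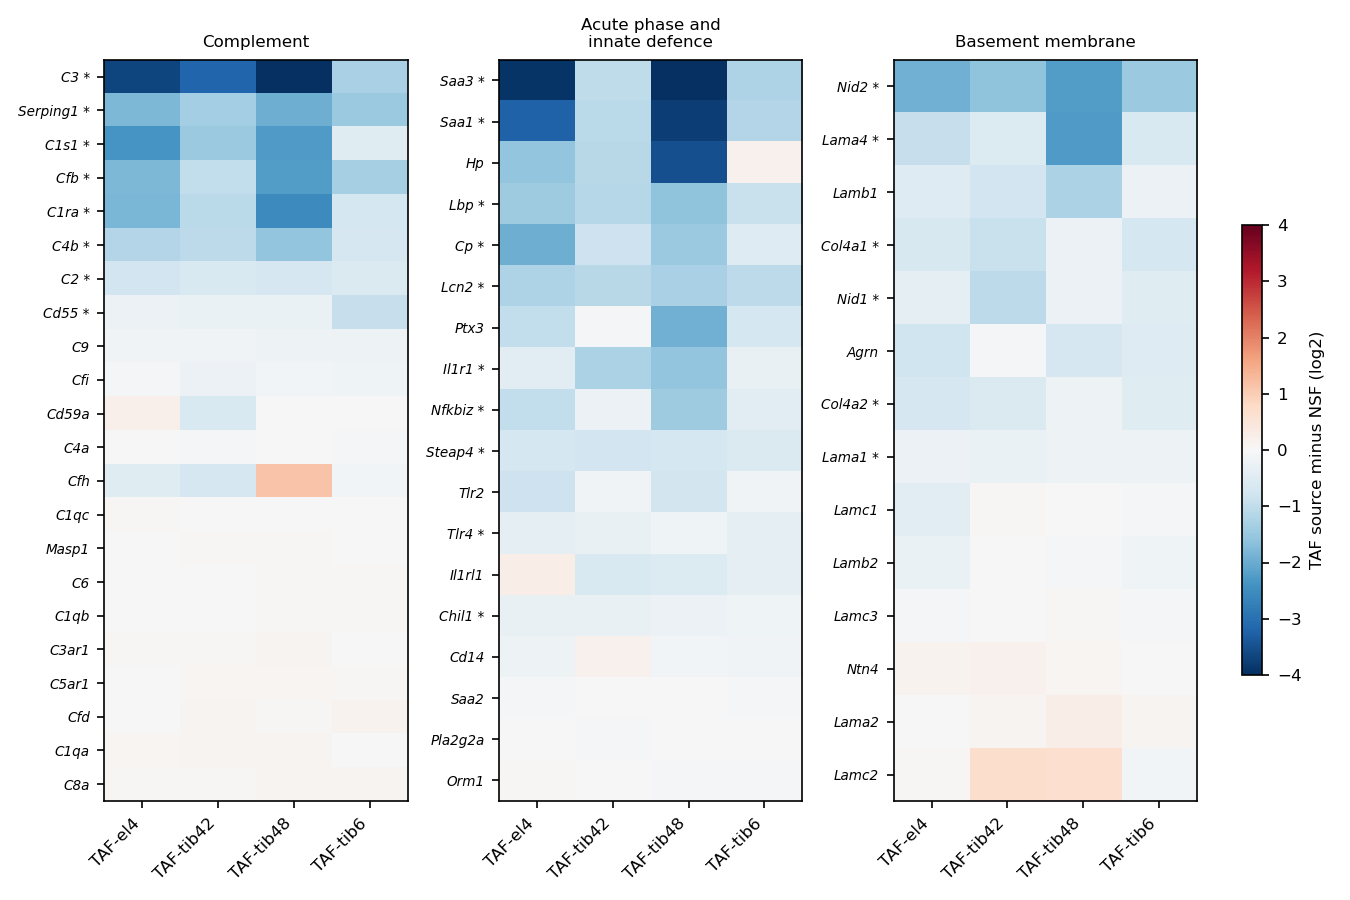
Colour gives the difference of each TAF source from NSF (log2; the scale ends at 4 in both directions) for the measured genes of 3 lists, ordered by mean difference, and an asterisk marks genes called in all 4 comparisons. The lower genes gather at the top of each panel, and TAF-tib6 (last column) is paler than TAF-el4 and TAF-tib48 in C3, C1s1, Saa3 and Saa1.

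Promoter sequences are shown for some of the defence genes described in the paragraphs on complement, acute phase and chemokine genes, so that their letters can be set beside the values. They were picked by hand and each holds a marked match, while others, such as Saa1, are not shown. The sequences are the 250 bases before the start of the gene in RefSeq, build GRCm38.p6, 5′ to 3′ on the strand of the gene. Both strands were searched for the C/EBP core TTGCNNAA and for the NF-kappa-B consensus, 2 binding motifs of factors known to act on acute phase genes, and capitals mark the matches. Of the 18 complement and acute phase genes lower in all 4, 11 had a promoter in the table, and 8 of the 11 (72.7%) held the C/EBP core in at least 1 promoter, against 10.8% of 27025 genes. That core was also in 2 of the 4 lower chemokine and cytokine genes (50%) and in 2 of the 5 lower lipid and sterol genes with a promoter in the table (40%). The NF-kappa-B consensus was in 3 of the 11 (27.3%) and in 3 of the 4 lower chemokine and cytokine genes (75%: Ccl20, Cxcl1 and Il6), against 8.23%. The sterol regulatory element TCACNCCAC was also searched and is not marked. It was in 1 of the 5 lipid and sterol genes (20%), 1 of the 11 (9.09%) and 0 of the 4, against 1.22%. The motifs and genes were chosen after the values were seen, and a match of letters is a description, not a site. Members of these lists that were not called lower were not counted, so the shares cannot be tied to the lower values.
Lcn2 (chr2:32387740-32387989, minus strand): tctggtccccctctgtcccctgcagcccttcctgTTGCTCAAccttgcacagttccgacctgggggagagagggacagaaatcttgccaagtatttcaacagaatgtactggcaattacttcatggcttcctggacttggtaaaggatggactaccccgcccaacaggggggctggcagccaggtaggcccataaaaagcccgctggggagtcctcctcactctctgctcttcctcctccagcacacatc
Saa3 (chr7:46715677-46715926, minus strand): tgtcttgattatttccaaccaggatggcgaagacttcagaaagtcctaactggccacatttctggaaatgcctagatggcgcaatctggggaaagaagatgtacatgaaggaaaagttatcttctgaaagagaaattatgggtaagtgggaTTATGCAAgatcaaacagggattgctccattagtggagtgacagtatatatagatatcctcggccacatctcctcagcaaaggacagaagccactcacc
C3 (chr17:57228137-57228386, minus strand): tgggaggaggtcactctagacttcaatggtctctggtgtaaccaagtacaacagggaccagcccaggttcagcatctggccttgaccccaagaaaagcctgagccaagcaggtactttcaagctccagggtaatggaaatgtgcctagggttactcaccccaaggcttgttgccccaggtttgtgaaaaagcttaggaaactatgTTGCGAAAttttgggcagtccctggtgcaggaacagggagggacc
Il6 (chr5:30012864-30013113, plus strand): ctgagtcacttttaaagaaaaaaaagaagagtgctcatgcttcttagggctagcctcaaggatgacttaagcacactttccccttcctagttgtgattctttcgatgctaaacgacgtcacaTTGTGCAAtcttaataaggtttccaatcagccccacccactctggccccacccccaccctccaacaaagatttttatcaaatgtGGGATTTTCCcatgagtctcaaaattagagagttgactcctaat
Cxcl1 (chr5:90890995-90891244, plus strand): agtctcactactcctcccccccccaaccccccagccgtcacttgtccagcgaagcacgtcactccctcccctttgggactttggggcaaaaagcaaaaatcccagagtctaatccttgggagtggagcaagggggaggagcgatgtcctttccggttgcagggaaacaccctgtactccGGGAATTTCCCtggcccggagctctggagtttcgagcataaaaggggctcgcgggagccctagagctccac

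Cebpb and Cebpd code for C/EBP beta and C/EBP delta, 2 transcription factors of that core, and also sit in the adipocyte marker list. Whether they act on the genes that hold the core was not tested. Cebpd read 2.61, 2.74 and 2.77 on the NSF arrays and 1.04 to 2.13 on the TAF arrays, and its mean difference was -1.05 (SE 0.341). Cebpb read 1.45, 1.57 and 1.61 against 0.05 to 1.15, a difference of -0.72 (SE 0.372). Both were called lower in all 4 comparisons and their arrays did not overlap; neither was called with the slide run as a block. They were the 2 members called of 19 adipocyte markers, a list with a median difference of 0.03 and 7 members below 0. The summed Cy5 signal of the list was 44020 to 49550 on the NSF arrays and 17690 to 41980 on the TAF arrays, but without Cebpb and Cebpd, a sum added after the values were seen, it was 6177 to 6512 and 4542 to 14540.

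Among 39 chemokines and inflammatory cytokines, 4 were lower in all 4 comparisons (10.3%, against 1.81% over all genes) and 1 was higher (2.56%, against 0.377%). Il6, an inducer of the acute phase response, read 5.0, 5.23 and 5.21 on the NSF arrays and 1.31 over 3.30 to 4.29 on the TAF arrays. Its source means were 2.80 in TAF-el4, 4.24 in TAF-tib42, 1.58 in TAF-tib48 and 3.72 in TAF-tib6, with a mean difference of -2.06 (SE 1.01). Cxcl1, which draws neutrophils, read 2.59, 2.75 and 2.67 in NSF, near 2 in TAF-tib42 and TAF-tib6 (1.98 and 1.95), and -0.83 and -0.96 in TAF-el4 and TAF-tib48. Il6, Cxcl1, Saa1 and Saa3 thus had the same pair of TAF sources far below NSF and the same pair closer to it. Ccl20, a chemokine for dendritic cells and lymphocytes, differed more evenly, by -0.69 (SE 0.147). Ccl20 was dim in TAF, with mean Cy5 signals of 6.41 to 6.74 (log2) against 7.38 in NSF. The size and the evenness of its difference are therefore uncertain. Il33, given among the lowest genes, was also called, and all 4 were also called with the slide run as a block. Ccl25, a chemokine of thymus and gut, was the higher one, by 0.27 (SE 0.0579), and was not called with that block; its dimmer probe gave 0.04. Cxcl12, the ligand of CXCR4, had a mean difference of -2.42 and all its TAF arrays below NSF (-2.14 to 1.68 against 1.89, 2.04 and 2.10), but it was not called in all 4. It was called when TAF-tib6 (-3.10) or TAF-tib48 (-2.26) was left out. Without TAF-tib6, 8 genes of this list were lower.

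Sod2, the mitochondrial superoxide dismutase that inflammatory signals induce, followed the same order of sources, with NSF at 1.46, 1.65 and 1.63, TAF-tib42 and TAF-tib6 at 1.1 and 0.91, and TAF-el4 and TAF-tib48 both at -0.03. It was 1 of 32 antioxidant genes called lower, and its mean difference was -1.09 (SE 0.527). Of 39 interferon response genes and 17 antigen presentation genes, 0 were called in all 4 by limma in either direction, and their median differences were 0.04 and -0.03. Over all genes 2.19% were called, so 0 calls in lists of this size is close to the general share.

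Matrix genes were lower more often than higher, as was also the case over all genes (1.81% lower, 0.377% higher). Of 14 basement membrane genes, which build the thin sheet under epithelium and around vessels, 6 were lower in all 4 and 0 higher, with a median difference of -0.36. Nid2, a nidogen that links laminin to collagen IV, read 2.25, 2.42 and 2.44 on the NSF arrays and -0.14 over 0.58 to 0.91 on the TAF arrays. It was 1.5 lower even in its weakest source and 1.82 lower on average (SE 0.295). Lama4, a laminin chain of vessel walls, read 3.74, 3.34 and 3.48 in NSF and 1.1 to 3.05 in TAF, a difference of -1.08 (SE 0.689), and TAF-tib48 was far below the other TAF sources at 1.26. Nid1, Col4a1, Col4a2 and Lama1 differed by -0.54, -0.61, -0.49 and -0.23. With scaled log ratios 3 of the basement membrane genes were lower, with the slide run as a block 1, Nid2, and leaving out 1 of 3 arrays ended the call of Col4a2 (-0.48 to -0.42).

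Dcn codes for decorin, a small proteoglycan that binds collagen and TGF-beta. It read -0.33, 0.19 and 0.12 on the NSF arrays and -3.12 over -2.86 to -1.24 on the TAF arrays. TAF-el4, TAF-tib42 and TAF-tib48 were close to each other (-3.03, -2.82 and -2.76), and TAF-tib6 was at -1.31. The mean difference was -2.48 (SE 0.686). Mgp, the matrix Gla protein that checks calcification, read 2.31, 2.07 and 2.14 in NSF, -0.91 in TAF-tib42 and 1.48 in TAF-tib6, with a mean difference of -1.90 (SE 0.865). Of 42 proteoglycans and matrix glycoproteins, 5 were lower and 1 was higher; with the slide run as a block 1 was lower, Sdc4, a syndecan (named after its values were seen), and 0 were higher, and with scaled log ratios 2 were lower. Without TAF-tib6 or without TAF-el4, 14 and 9 were lower, and 3 were lower without NSF replicate 1 or without TAF-tib6 replicate 1. The higher one, Thbs2, a thrombospondin that inhibits vessel growth, read 1.04 and 1.15 on 2 NSF arrays and 1.27 to 2.38 in TAF, and its call ended without NSF replicate 2 (0.50). The collagens had 2 of 21 lower, both chains of collagen IV, and a median of -0.29. In the elastic fibre and cross-linking list, Fbln1, a fibulin, differed by -0.70 (SE 0.322) and Loxl3, a lysyl oxidase-like enzyme, by 0.63 (SE 0.279, called higher).

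**Figure D4:**
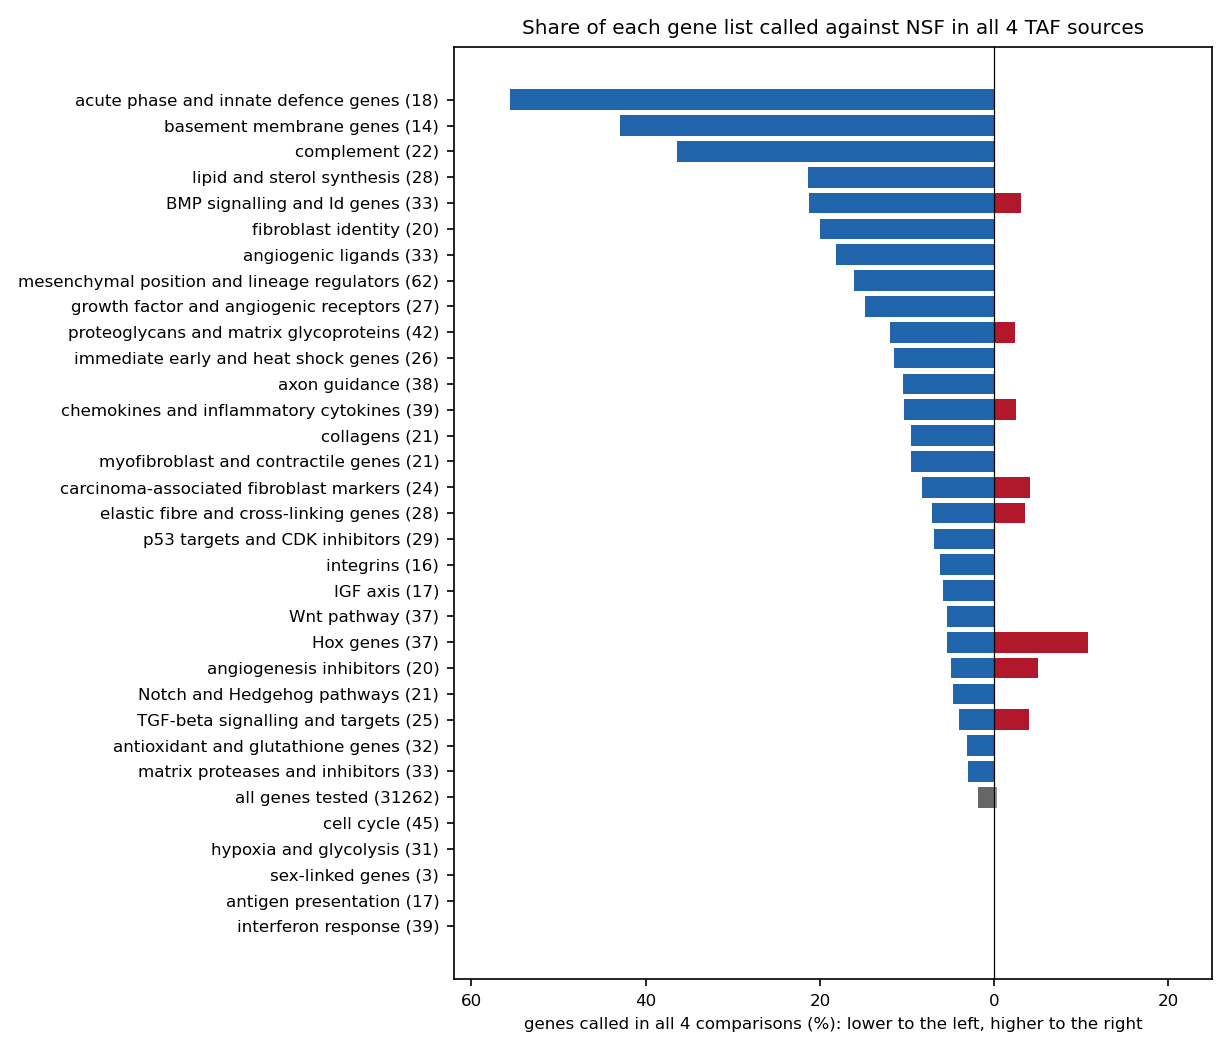
Bars give the share of each gene list called lower (left) or higher (right) in all 4 comparisons, in percent of the genes tested, whose number stands in brackets; the grey bar is the share over all 31262 genes. Acute phase, basement membrane and complement genes have the longest bars to the left, Hox genes the longest to the right, and cell cycle, hypoxia, antigen presentation and interferon genes have none.

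Angiogenic ligands, the factors that act on vessel growth, were lower in 6 of 33 (18.2%) and higher in 0. Over all genes 1.81% were lower and 0.377% higher. Ptn, pleiotrophin, a heparin-binding growth factor, read 1.76, 1.14 and 1.44 in NSF and -1.29 over -0.76 to 0.15 in TAF, 2.13 lower on average (SE 0.451). Its relative Mdk, midkine, differed by -0.62 (SE 0.156), and by -1.47 on a dimmer probe. Vegfc, the ligand of lymphatic vessel growth, read 0.96, 1.05 and 1.05 in NSF and -0.69 to 0.29 in TAF, 1.32 lower (SE 0.348). Every TAF array was below every NSF array for these 3 genes. Fgf10 and Fgf7, fibroblast growth factors that act on epithelium, differed by -0.79 (SE 0.141) and -0.66 (SE 0.339), and Angptl4, an inhibitor of lipoprotein lipase, by -1.1 (SE 0.616). Ptn, Vegfc and Fgf10 were also called with the slide run as a block.

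Vegfa itself, the target of the treatment in the title, was not called in all 4: it read 0.10, 0.11 and 0.12 in NSF and -0.07 to 0.48 in TAF, and the difference was 0.14 (SE 0.165). The platelet-derived growth factor Pdgfc read -0.86, -0.79 and -0.91 in NSF, and its source means were -0.27, 0.28 and -0.17 in TAF-el4, TAF-tib42 and TAF-tib48 but -0.76 in TAF-tib6. It was called higher in the 3 sources other than TAF-tib6, with a mean difference of 0.80 over those 3 and 0.62 over all 4 (SE 0.372). Pdgfa had all TAF arrays above NSF, with a difference of 0.33 over all 4 and 0.39 without TAF-tib6, where it was called. Its differences were 0.56 and 0.43 in TAF-el4 and TAF-tib42 but 0.18 and 0.12 in TAF-tib48 and TAF-tib6. Pdgfrb, a receptor of these ligands, differed by -0.23 (SE 0.184) and was not called in all 4.

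Of 27 growth factor and angiogenic receptors, 4 were lower (14.8%, against 1.81% over all genes) and 0 higher (against 0.377%). Egfr, the receptor of epidermal growth factor, read 1.54, 1.43 and 1.54 in NSF and -0.76 to 1.01 in TAF, 1.12 lower (SE 0.55); its 3 dimmer probes gave -0.31, -0.20 and -0.24. Flt1, a receptor and trap of VEGF, differed by -1.19 (SE 0.636, and -1.15 on a dimmer probe), with TAF-tib6 0.23 below NSF. Nrp1, a co-receptor of VEGF, differed by -0.38, and by -0.14 on a dimmer probe. Pdgfra, the PDGF receptor that marks fibroblasts, differed by -0.90 (SE 0.392); its call ended without TAF-tib6 replicate 3 (-0.89), and its dimmer probe gave -0.09. With the slide run as a block, and with the Cy5 channel alone, 1 receptor was called, Egfr in the former. In the IGF axis Igfbp2, a binding protein that holds IGF, read 2.71, 2.56 and 2.60 in NSF and -1.55 to 1.80 in TAF, 2.18 lower (SE 1.11), the single gene called of 17. With 2.19% called over all genes, 1 call of 17 says little about the list.

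The BMP pathway and its Id targets had 7 of 33 genes lower (21.2%, against 1.81% over all genes) and 1 higher (3.03%, against 0.377%). Fst codes for follistatin, which binds and blocks activin and BMPs. It read 2.98, 2.77 and 3.05 on the NSF arrays and 0.18 over 0.78 to 1.92 on the TAF arrays, 2.09 lower (SE 0.632), with TAF-el4 nearest to NSF at 1.88. The Id genes code for inhibitors of helix-loop-helix factors and are induced by BMPs: Id2 and Id4 differed by -1.0 and -0.98, and Id3 by -0.79 with arrays that overlapped. Id1 differed by -1.21 but was not called, since TAF-el4 lay 0.12 below NSF. Nog, noggin, another BMP antagonist, was higher by 0.26. Leaving out 1 array ended the calls of Id3 in 3 cases (-0.78 to -0.72), of Nog in 4 (0.25 to 0.26) and of Smad5, a BMP signal carrier, in 2 (-0.19 to -0.18), and 2 dimmer probes of Smad5 gave -0.01 and -0.03. The remaining lower members were Nbl1, a BMP antagonist (-0.62), and Gdf6, a BMP-like ligand that was not well above background on the TAF-tib42 arrays, where NSF was at least 1.44-fold higher in Cy5 signal. With the slide run as a block 2 genes of the list were lower, Fst and Smad1 (the latter not called without the block and named after its values were seen), and 0 were higher. The Wnt antagonist Sfrp2 differed by -0.69 (SE 0.208).

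Genes that mark body position and lineage differed in both directions. Of 37 Hox genes, 4 were higher (10.8%), Hoxc9, Hoxc10, Hoxa9 and Hoxa10, and 2 were lower (5.41%), Hoxd4 and Hoxb2. Over all genes 0.377% were higher and 1.81% lower. Hoxc9 read -0.09, -0.09 and -0.07 on the NSF arrays and 0.65 over 0.81 to 0.92 on the TAF arrays, 0.88 higher (SE 0.0734), with source means of 0.72 to 0.87. Hoxc10 read -0.40, -0.26 and -0.27 against 0.11 to 0.37, 0.54 higher (SE 0.0557; 0.26 on a dimmer probe). Hoxa9 read -0.26, -0.25 and -0.18 against 0.07 to 0.24, 0.38 higher (SE 0.0529). In these 3 the TAF sources were close together and NSF stood below them. Hoxa10 was higher by 0.73 on average, but TAF-tib6 was at 0.03 against 0.74 to 0.81 in the other TAF sources, and its call ended in 5 of the cases that leave out 1 array (0.72 to 0.74). Hoxd4 and Hoxb2, from the front end of their clusters, differed by -0.66 (SE 0.187) and -0.59 (SE 0.234). Hoxc9 and Hoxc10 were also called with the slide run as a block.

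Of 62 other mesenchymal position and lineage regulators, 10 were lower (16.1%, against 1.81% over all genes) and 0 higher (against 0.377%). Sox11, a factor of progenitor cells, read 0.38, 0.51 and 0.54 on the NSF arrays and -0.16 to 0.02 on the TAF arrays. It was lower by 0.54 (SE 0.0519), with an SD of 0.03 over the TAF sources, while 2 dimmer probes gave -1.17 and -0.25. Twist2, a helix-loop-helix factor of mesenchyme, read 1.05, 1.19 and 1.29 on the NSF arrays and 0.13 to 0.67, with a median of 0.42, on the TAF arrays. Its TAF mean was lower by 0.79 (SE 0.176). Sox11 and Twist2 were lower on every TAF array than on any NSF array. Twist1, of the same family as Twist2, differed by -0.94 (SE 0.698), and Tbx3 and Tbx15, T-box factors of limb and trunk, by -0.84 (SE 0.335) and -0.41 (SE 0.135). Wt1, the Wilms tumour factor, was lower by 0.39 (SE 0.0667). Also called were Zic1, Lhx9 and Prrx1, at -0.74, -0.25 and -0.33, whose calls ended without 5, 2 and 11 of the 15 arrays, each left out alone (-0.74 to -0.68, -0.23 to -0.20 and -0.33 to -0.30). A dimmer probe of Lhx9 gave 0.03, and those of Tbx15 gave -0.34 and -0.00. Twist2 and Wt1 were also called with the slide run as a block.

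**Figure D5:**
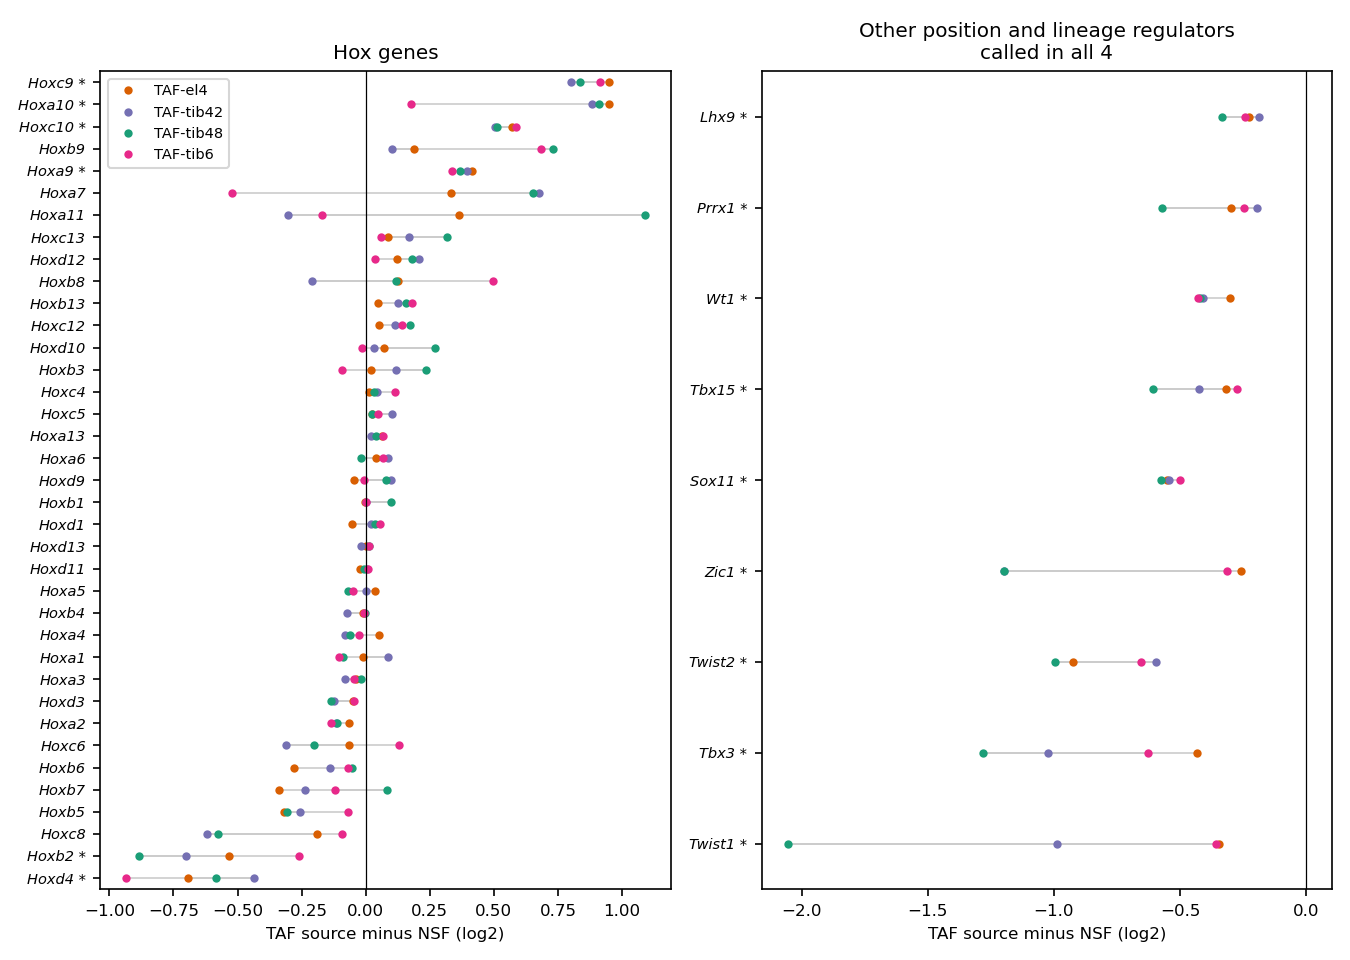
For each Hox gene (left) and for 9 other regulators called lower in all 4 (right), 4 points give the difference of each TAF source from NSF (log2), coloured by source, and asterisks mark genes called in all 4. Hoxc9, Hoxc10 and Hoxa9 have their 4 points close together to the right of 0, Hoxa10 has TAF-tib6 apart at 0.18, and Sox11 has its 4 points close together to the left of 0.

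Sterol synthesis enzymes were lower by small amounts, and 21.4% of the lipid and sterol list was called lower in all 4, against 1.81% over all genes. Of 28 lipid and sterol synthesis genes, 6 were lower and 0 higher, with a median of -0.18: Dhcr7 and Idi1 differed by -0.54 (SE 0.267) and -0.49 (SE 0.196), Sc5d by -0.46, Hmgcs1 by -0.43, Nsdhl by -0.38 and Fdft1 by -0.36 (SE 0.0698). Fdft1, squalene synthase, read -0.15, -0.12 and -0.09 in NSF and -0.58 to -0.31 in TAF, the most even of the 6, though its dimmer probe gave 0.02. Dimmer probes gave -0.16 for Dhcr7, -0.12 for Idi1, -0.04 for Hmgcs1, and -0.29 and -0.15 for Nsdhl. Leaving out 1 array ended the calls of Sc5d in 4 cases (-0.46 to -0.44) and of Nsdhl in 5 (-0.39 to -0.37), and with the Cy5 channel alone 3 genes of the list were lower. With the slide run as a block 0 of the 6 were called, while limma without the block gave each an adjusted p of 0.027 or less in all 4.

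The immediate early genes Fos, Junb and Jun, which code for subunits of the AP-1 factor, were the 3 of 26 immediate early and heat shock genes that were lower. They make up 11.5% of the list, against 1.81% over all genes. Fos read -0.67, -0.81 and -1.01 in NSF and -3.33 to -1.25 in TAF, 1.65 lower (SE 0.702). Jun differed by -0.38 (SE 0.136) and Junb by -0.88 (SE 0.428), and the call of Junb ended without 5 of the arrays left out singly (-0.89 to -0.86). With the slide run as a block, Jun alone was called. Without TAF-el4, 9 genes of this list were lower in the other 3 sources, without TAF-tib42, 5, and with the Cy5 channel alone, 1.

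Cell cycle genes lay slightly above NSF as a list without being called. Of 45 tested, 0 were called in all 4 by limma in either direction, their median difference was 0.21 and 3 lay below 0. With 2.19% called over all genes, 0 calls in a list of this size is close to the general share. The myofibroblast and tumour fibroblast markers Acta2, smooth muscle actin, and Fap, fibroblast activation protein, were not called either. Acta2 read 2.25, 1.80 and 2.47 in NSF and 1.79 to 2.67 in TAF, a difference of 0.07 (SE 0.0928) that turned to -0.12 without NSF replicate 2. Fap read 0.05, -0.05 and 0.10 against -0.26 to -0.06, a difference of -0.18 (SE 0.0521), and was called without TAF-el4 (-0.19), without NSF replicate 2 (-0.22) and with the scanner's log ratio (-0.53). Its probe was dim in every source, with mean Cy5 signals of 6.313 in NSF and 6.185 to 6.216 in TAF (log2). The size of its difference is therefore uncertain, and the missing call says little. Of 24 carcinoma-associated fibroblast markers, Il6 and Saa3 were lower (8.33%, against 1.81% over all genes) and Thbs2 was higher (4.17%, against 0.377%).

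The higher genes were few and, besides C1qtnf12 and the Hox genes, belonged to no single list. Gcnt1, which branches O-linked sugar chains, read -1.57, -1.70 and -1.71 in NSF and -1.06 to 0.07 in TAF, 1.09 higher (SE 0.414); 2 dimmer probes gave 0.21 and 0.07. Slc16a11, a monocarboxylate transporter, read 0.74, 0.71 and 0.69 in NSF, 1.09 in TAF-tib6 and 2.26 to 3.10 in the other TAF sources, 1.56 higher (SE 0.747). Xlr, an X-linked lymphocyte-regulated gene of a family of near-identical copies, which the probe could not be shown to separate, was -3.12, -3.06 and -3.20 in NSF, -2.46 and -2.73 in TAF-el4 and TAF-tib6, and -0.06 and -0.08 in TAF-tib42 and TAF-tib48. Both genes were higher on every TAF array, by very unequal amounts. Fbxo32, atrogin-1, a ubiquitin ligase subunit, was 0.76 higher (SE 0.466), with TAF-tib42 at 1.74 and the other TAF sources at 0.58 to 0.77. Wwp2, another ubiquitin ligase, was 0.50 higher (SE 0.0832), with 0.35, 0.10 and 0.05 on its dimmer probes, and Depdc1b 0.40 (SE 0.0468, SD over TAF sources 0.02). Fyb, an adaptor of T cells and platelets, was 0.84 higher against 2 NSF arrays at -2.17 and -2.87; its call ended without NSF replicate 3 (0.49), and its dimmer probe gave 0.13. With the slide run as a block C1qtnf12, Gcnt1, Fbxo32 and Wwp2 were called, and the calls of Slc16a11, Xlr, Depdc1b and Fyb ended, at 1.48, 1.76, 0.44 and 0.73.

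Over all genes, which TAF source was closest to NSF depended on the measure. The SD of the difference from NSF between source means was 0.158 for TAF-tib6, 0.199 for TAF-el4, 0.235 for TAF-tib42 and 0.248 for TAF-tib48, whereas the median size of that difference was 0.0535 for TAF-el4, 0.0624 for TAF-tib6, 0.0751 for TAF-tib42 and 0.0824 for TAF-tib48. Between TAF sources the SD was 0.195 to 0.236, a range that overlaps that of the distances to NSF. The median difference of the 566 lower genes was -0.36 in TAF-tib6, -0.40 in TAF-el4, -0.48 in TAF-tib42 and -0.55 in TAF-tib48.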

How the data were processed

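Each array was deposited as a scanner file with spot intensities for both dyes (mean signal and median background), per the file headers, beside the scanner's background-subtracted and dye-normalised log10 ratio of Cy5 to Cy3. Agilent Feature Extraction 8.5.1.1 is named in the file headers and in the submitters' processing notes, while a protocol label names 9.5. The authors also deposited a table of log2 ratios. Set against the scanner's ratio on the log2 scale, it had slope 1 and correlation 1 on each array, which gives Cy5 over Cy3 as its direction, and its column medians of 0.03 to 0.05 show that it was not centred on 0.

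Intensities were corrected with normexp (offset 50) and normalised by loess within arrays in limma 3.58.1 (R 4.3.3). Control spots and outlier-flagged spots were removed, saturated ones were not, and repeat spots of a probe were averaged. Of 41174 probes, 22080 were named by accession through a RefSeq table of assembly GRCm38.p6, 1286 by description or gene name, and 17808 kept the name of the file. The brightest probe stood for its gene. Of 49 named and called genes with several probes, 31 had another probe with less than 0.5 of the difference or of opposite sign (opposite in 3), and values of other probes are given for many of them. A gene was tested if it was well above background in Cy5 on all arrays of at least 1 source.

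Each TAF source was compared with NSF in 1 limma fit over 15 arrays, and the TAF mean with NSF over 5 source means. Tests were two-sided with Benjamini-Hochberg adjustment over all genes. SEs are those of the source-mean fit, SDs over TAF are over 4 source means, and where 3 TAF array values are given they are the lowest, the median and the highest. The naming rule took the 15 highest and 15 lowest genes with a symbol by the weakest of the 4 differences among called genes whose arrays did not overlap, up to 4 such members of each list, and Pdgfc, Pdgfa, Pdgfrb, Vegfa, Acta2 and Fap. Of the genes named, 95 came from this rule and 32 were added after their values were seen (Sdc4 and Smad1 apart): Cyp4b1, Hp, Cxcl12, Id1, Ccl25 and the other called members of the lists on defence, matrix, sterol, BMP, ligand and position genes. 1 gene picked by the rule is not reported here. Members, lists and alternatives were chosen with earlier results of these data known. The steps were tested on simulated data: where arrays alone varied, the rule over all 4 comparisons called no unchanged gene, but where sources varied too it called more unchanged genes than the 684 called here, while the fit over source means called few. Alternatives were other background corrections and normalisations, the authors' table, other filters, the slide run or replicate number as a block, and each source or array left out.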

Additional observations from a re-analysis of the deposited data

Results flagged for a closer look

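In 12 of the 127 named genes, 1 TAF source stood apart from the other 3 by Dixon's test over the 4 source means (log2 Cy5/Cy3). Chance alone flags about 1 in 20 such groups, but the genes were named from these same data, so that rate need not hold here. The test takes the source means alone and leaves out the spread between arrays. TAF-tib6 stood apart in 5 genes: Dcn was at -1.31 against -3.03 to -2.76 in the other TAF sources, Thbs2 at 2.32 against 1.39 to 1.47, Plat, the tissue plasminogen activator, at 0.952 against 0.62 to 0.64, Cd55 at 1.17 against 1.83 to 1.88, and Hoxa10 at 0.0329 against 0.74 to 0.81. In Dcn, Plat and Hoxa10 this placed TAF-tib6 nearest to NSF, and in Thbs2 and Cd55 farthest from it. TAF-tib42 stood apart in Fbxo32 at 1.74 against 0.58 to 0.77, in Mylk, the myosin light chain kinase, at -0.651 against 1.11 to 1.38, and in Gdf6 at -0.022 against 0.080 to 0.087, where the Gdf6 probe was not well above background on any TAF-tib42 array, so that this value is only a bound. TAF-el4 stood apart in Hmgb3 at -0.848 against -0.77 to -0.77, in Kifc5b at 0.407 against -0.42 to -0.30, and in Wt1 at -1.10 against -1.22 to -1.21. TAF-tib48 stood apart in Pou2af1 at -2.42 against -2.75 to -2.70. In Hmgb3, Wt1, Pou2af1 and Gdf6 the arrays of the source that stood apart overlapped with those of other TAF sources. The Hmgb3 arrays read -0.92 to -0.77 in TAF-el4, -0.96 to -0.62 in TAF-tib48 and -0.91 to -0.55 in TAF-tib6.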

How the results depend on the processing

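The number of genes called in 1 direction in all 4 comparisons was 684, and it moved by more than 1.5 times under 3 settings: 1081 with median centring (114 higher, 967 lower), 132 with the slide run as a block (10 higher, 122 lower), and 1735 without TAF-tib6. Of the 684 genes, 575 were among the 1081. It was 534 to 732 with each array left out in turn and 896 to 1009 without TAF-el4, TAF-tib42 or TAF-tib48. The count of genes with at least 2-fold in every comparison was 26. It was 47 with the scanner's log ratio, 47 with the authors' deposited table, 49 with the Cy5 channel alone and 60 without TAF-tib6, and 21 to 28 with each array left out. Over source means limma called 0 genes under every setting tried. The replicate numbers did not pair the arrays: deviations of arrays with the same number correlated at -0.19 to 0.17, and those of other numbers at -0.23 to 0.25. With the replicate block the counts were 652, 26 and 0. Of the comparisons of the 127 named genes over 30 settings, 3431 kept direction and side of the threshold, 363 lost the call and 11 gained it, and the uncalled Acta2 changed sign under 3 settings (median centring -0.06, slide run block -0.57, without NSF replicate 2 -0.12). No called gene changed direction. The slide run block ended 80 named calls, the Cy5 channel alone 41, and 25 ended with the scanner's log ratio and as many with the authors' values. Fold changes of dim genes are uncertain in size: Epha3 was at -0.49 here, at -0.08 on its dimmer probe and at -2.26 on the scanner's ratio, and the cause was not tested.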

Other observations

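Some genes outside the groups described were also called in all 4 comparisons by limma. Over all genes 2.19% were called, so 1 call in a list of 12 to 17 genes says little about the list. Of 16 integrins tested, Itga9, a receptor for tenascin and VEGF-C, was the 1 called: it read 1.22, 1.12 and 1.22 on the NSF arrays and 0.18 to 0.75 on the TAF arrays, 0.84 lower (SE 0.203). Perp, a p53 target and desmosome protein, read -1.28, -1.25 and -1.26 in NSF and -2.70 to -1.52 in TAF, 0.99 lower (SE 0.385), with TAF-el4 nearest to NSF. Fas, a death receptor, differed by -0.76, and its call ended in 5 of the cases that leave out 1 array (-0.76 to -0.72). Among contractile genes Mylk and Myh10, a non-muscle myosin, differed by -0.86 (SE 0.815) and -0.56 (SE 0.244), and a dimmer probe of Myh10 gave -0.16. Aif1, a macrophage marker, differed by -0.59 (SE 0.185; -0.22 on a dimmer probe) and was the 1 called of 17 such markers, and Pmp22, a myelin gene that fibroblasts also express, differed by -0.44 (SE 0.0713) and was the 1 called of 12 nerve and Schwann markers. That list had a median difference of 0.01 and 6 of 12 members below 0. Its summed Cy5 signal was 11710 to 12100 on the NSF arrays and 9497 to 11420 on the TAF arrays, and without Pmp22, a sum added after the values were seen, 4253 to 5389 and 3764 to 6147.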
